A study of Danio rerio with 17 samples.

Results

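Me1 and pgd encode cytosolic enzymes that make NADPH. In these zebrafish liver arrays 3 probe sets of 15502 measured the 2 genes: 2 probe sets carry the single symbol me1, here called the brighter and the dimmer one, and 1 carries the single symbol pgd. All 3 were taken, whatever their values, and 8793 genes in all are named by a single symbol. The study crossed sex with dietary carbohydrate in 17 fish, with 1 liver array each. The groups held 5 females fed 25% carbohydrate (fish 3, 20, 24, 49 and 51), 5 females fed 0% (fish 7, 8, 10, 25 and 27), 3 males fed 25% (fish 52, 53 and 54) and 4 males fed 0% (fish 11, 26, 30 and 66). The male groups follow the labels of the samples, although the submitters' design text has 3 males at 0% and 4 at 25%. The labels used here give no strain or age.

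NADPH carries the reducing power for fatty acid and cholesterol synthesis and for the glutathione and thioredoxin systems. Malic enzyme 1, the product of me1, oxidises malate to pyruvate in the cytosol and is one arm of the cycle that exports acetyl units from mitochondria as citrate. Phosphogluconate dehydrogenase, the product of pgd, acts in the oxidative branch of the pentose phosphate pathway, where it turns 6-phosphogluconate into ribulose 5-phosphate. In the liver of mammals and birds, carbohydrate feeding is known to raise malic enzyme.

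Hepatocyte markers were bright in every sample: the mean of 12 measured markers of 16 lay between 12.03 and 12.60 on the log2 scale on all 17 arrays. For sex averaged over diets, 5 of the 12 were lower and 0 higher in females, where 5.57% of all probe sets were lower and 8.02% higher. Apoa1a was among the lower ones, by -0.79 (limma, adjusted p = 0.00125). The part of hepatocyte markers in the sex differences of me1 and pgd was not tested. Arrays of a group correlated at 0.925 to 0.981. Markers of other tissues varied between fish. The mean of 14 measured intestinal markers (of 21) was 8.65 in male fish 52 on 25%, and 8.24 and 8.0 in male fish 11 and 66 on 0%, against 5.08 to 5.63 in the other 14 fish. Ovary and oocyte markers (17 measured of 25) averaged 5.59 to 6.49 in females on 25%, 3.51 to 4.88 in females on 0%, 3.16 to 3.46 in males on 25% and 3.20 to 3.51 in males on 0%. Vitellogenin, the yolk protein that female liver makes, set the sexes apart: the mean of vtg2, vtg3 and vtg4 was 11.85 to 13.02 in females and 3.62 to 6.89 in males. Male fish 11 (6.89), 30 (5.13) and 26 (4.79), all on 0%, were above the other 4 males, which reached at most 4.03. All 3 members lay above the array's median on all 17 arrays, by at least 0.659. Their signals are log2 values per probe set, so a level is compared between fish and never between probe sets. In whole-tissue RNA, fewer cells of a type and less RNA per cell cannot be told apart.

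**Figure D1:**
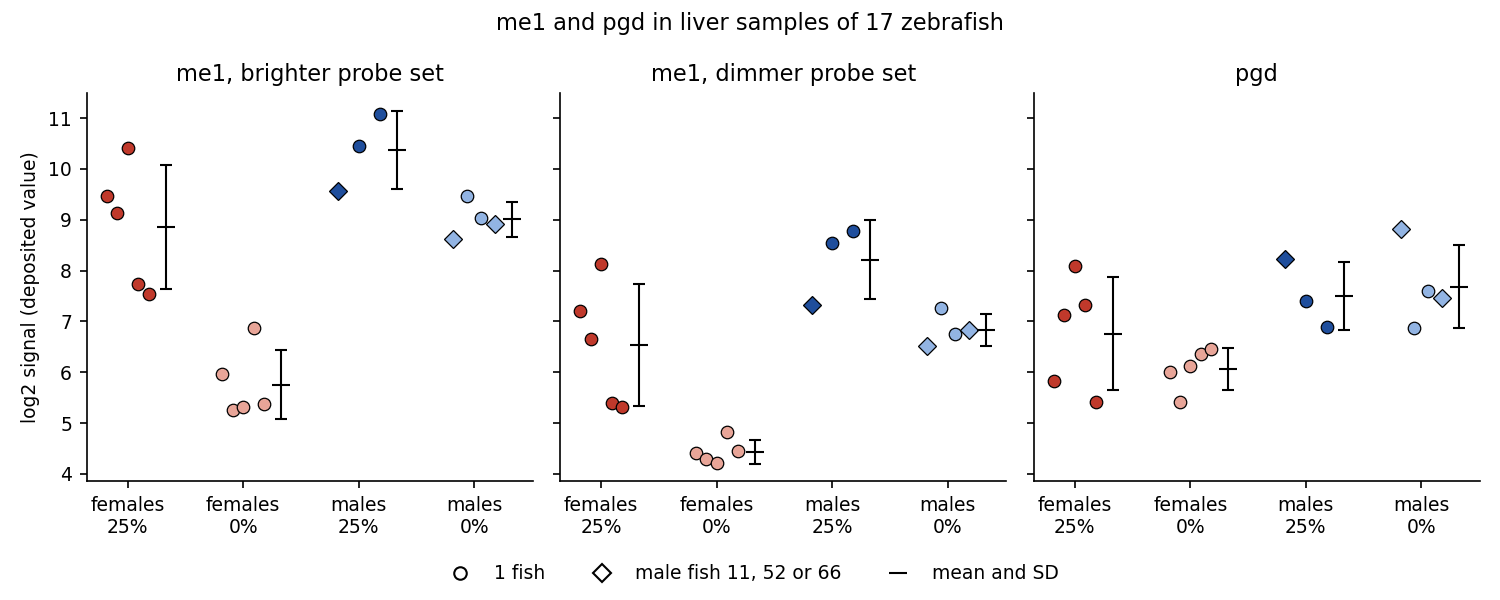
Log2 signal (y axis) of both me1 probe sets and of pgd in each fish, by sex and dietary carbohydrate; points are single fish, diamonds are male fish 11, 52 and 66, and bars give mean and SD. For me1 the females on 0% (brighter probe set 5.26 to 6.88) sit below every other fish. For pgd they (5.41 to 6.46) sit below every male (6.87 or more) but overlap with the females on 25%, and the male diets overlap. How many probe sets separate in these ways was not counted.

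Me1 was the gene that moved with both sex and diet. On the brighter me1 probe set, the 5 females on 25% had 9.47 (fish 3), 9.13 (fish 20), 10.42 (fish 24), 7.73 (fish 49) and 7.54 (fish 51). The 5 females on 0% had 5.96 (fish 7), 5.26 (fish 8), 5.31 (fish 10), 6.88 (fish 25) and 5.38 (fish 27). Every female on 25% lay above every female on 0%, and the females on 25% spread over almost 3 log2 units. The 3 males on 25% had 9.56 (fish 52), 10.46 (fish 53) and 11.09 (fish 54). The 4 males on 0% had 8.62 (fish 11), 9.46 (fish 26), 9.03 (fish 30) and 8.92 (fish 66). The male diets did not overlap either, but the lowest male on 25% and the highest male on 0% were only 9.557 and 9.46.

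The order of the group means was males on 25% at 10.37 ± 0.77 (SD, n = 3), males on 0% at 9.01 ± 0.35 (SD, n = 4), females on 25% at 8.86 ± 1.21 (SD, n = 5) and females on 0% at 5.76 ± 0.69 (SD, n = 5). Females on 25% and males on 0% are neighbours in this order, and their difference of -0.15 ± 0.53 did not pass (limma, adjusted p = 0.908; 95% confidence interval -1.27 to 0.98); 9.11% of all probe sets were called in either direction there. The males on 25% and on 0%, also neighbours, had a difference that did not pass the model either. No female on 0% overlapped with any fish of the other 3 groups. The share of all probe sets with such a separation was not counted, so this is only a description.

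In females me1 rose with 25% carbohydrate by 3.10 ± 0.50 log2 units (difference ± standard error, as for all differences that follow), which is 8.58-fold with a 95% confidence interval of 4.11 to 17.9 (limma, adjusted p = 0.00175). An exact two-sided permutation test over the 10 females gave p = 0.00794, the smallest that 252 splits allow, and 0.0317 adjusted over the 4 such tests made. The dimmer me1 probe set rose by 2.1 ± 0.45 (adjusted p = 0.018), so both probe sets were called higher, against 1.9% of all probe sets. Its females on 25% had 7.21, 6.65, 8.13, 5.4 and 5.31 in the same fish order, and its females on 0% had 4.40, 4.29, 4.22, 4.83 and 4.45, again without overlap. Groups that do not overlap in this direction occurred for 2.75% of all probe sets. By size of the difference the brighter probe set was number 25 of 15502 and the dimmer one number 101. The call of the dimmer probe set was lost in a fit of the females alone (adjusted p = 0.0618), without male fish 11, 26 and 30 (adjusted p = 0.0517), without female fish 10 (adjusted p = 0.0526) and with the ovary marker mean as a covariate (adjusted p = 1).

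Ovary markers moved with diet in the same females. Of the 17 measured, 15 rose at 25%, where 1.9% of all probe sets did, with a median difference of 2.3 against -0.03 over all probe sets. The summed log2 signal of the 17 spanned 95 to 110.4 on 25% and 59.6 to 82.9 on 0%. Bmp15 and ddx4, which mark oocytes and germ cells, were the only 2 of the 17 below the array's median in every female on 25%. In females on 0% 4 were (bmp15, ddx4, buc and zp3c). In males the number was 11 on 25% and 10 on 0%. With the ovary marker mean as a covariate the me1 difference was 2.99 ± 1.24 with adjusted p = 1 (limma), against 3.10 ± 0.50 without it. The marker mean did not overlap between the female diets, so this fit cannot tell ovary markers from diet. Exocrine pancreas markers had a median female diet difference of 1.52, above 0 for all 15, with 0 of 15 past the threshold in limma and 0 at an unadjusted p under 0.05. The part of pancreas markers in the me1 difference was not tested.

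**Figure D2:**
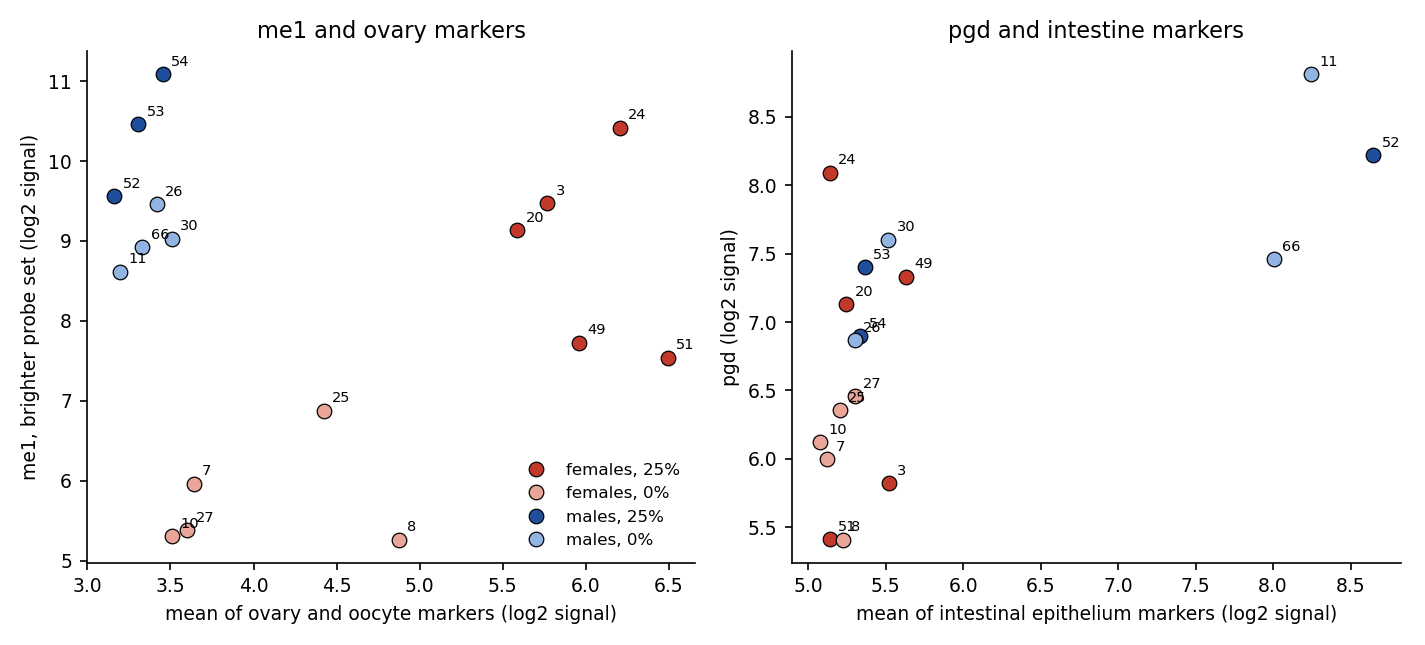
Left, me1 (brighter probe set, log2 signal) against the mean of 17 ovary and oocyte markers; right, pgd against the mean of 14 intestinal markers; each point is 1 fish, numbered, coloured by sex and diet. Males combine me1 of 8.62 to 11.09 with the lowest ovary marker means, and male fish 11, 52 and 66 stand alone at intestinal marker means of 8.0 to 8.65.

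In males, me1 was 1.36 ± 0.60 higher at 25% than at 0%, a ratio of 2.57 with a 95% confidence interval of 1.06 to 6.24, which did not pass (limma, adjusted p = 0.565). Only 0.0968% of probe sets were called higher in males on 25%, and 3.39% had groups that did not overlap in that direction. The exact two-sided permutation test gave p = 0.0286, the smallest that 35 splits allow, and 0.0571 adjusted over the 4 tests. The dimmer probe set differed by 1.38 ± 0.54 (adjusted p = 0.486); its 3 males on 25% had 7.33, 8.55 and 8.77 and its 4 males on 0% had 6.51, 7.27, 6.76 and 6.83. Averaged over the sexes, me1 rose by 2.23 ± 0.39 (adjusted p = 0.0113) and by 1.74 ± 0.35 on the dimmer probe set (adjusted p = 0.0192), both called higher against 1.46% of all probe sets. The dimmer call was lost without male fish 53 (adjusted p = 0.0602), male fish 54 (adjusted p = 0.0614), male fish 11, 52 and 66 (adjusted p = 0.0591) or male fish 11, 26 and 30 (adjusted p = 0.258), and with the ovary marker mean as a covariate (adjusted p = 1). By size, only 4 probe sets had a higher averaged diet difference than the brighter one, which ranked 5. The female and male diet differences were not shown to be unequal. The interaction was 1.74 ± 0.78 (adjusted p = 0.78) on the brighter probe set and 0.72 ± 0.70 (adjusted p = 0.996) on the dimmer, where 0.69% of all probe sets were called higher.

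Me1 was lower in females than in males when the diets were averaged, by -2.38 ± 0.39 on the brighter probe set (limma, adjusted p = 0.000889) and -2.04 ± 0.35 on the dimmer (adjusted p = 0.0013). Both were among the 5.57% of probe sets called lower, while 8.02% were called higher. On the 0% diet the difference was -3.25 ± 0.53, so that females had 9.5-fold less signal (95% confidence interval 4.36 to 20.7; adjusted p = 0.00389), and all 5 females lay below all 4 males. The dimmer probe set stood at -2.40 ± 0.48 there (adjusted p = 0.0121), a call lost with the ovary marker mean as a covariate (adjusted p = 0.0835) and without male fish 11, 26 and 30 (adjusted p = 0.243). At that diet 1.06% of probe sets were called lower and 2.84% had groups that did not overlap in that direction, and by size the brighter me1 probe set was number 11 from the low end. On the 25% diet the difference was -1.51 ± 0.58 (adjusted p = 0.168) and -1.68 ± 0.52 (adjusted p = 0.0822), neither called, where 1.36% were. There female fish 24, at 10.42, lay above male fish 52, at 9.56, and the other 4 females on 25% lay below all 3 males. Without female fish 24 this difference was -1.90 and was called (adjusted p = 0.0471), and the dimmer probe set was called without female fish 24 (adjusted p = 0.00983) or male fish 52 (adjusted p = 0.0494), with array weights (adjusted p = 0.0261) and with the intestinal marker mean as a covariate (adjusted p = 0.0376). Without male fish 11, 52 and 66, whose intestinal markers were high, the averaged sex difference was -2.70 (adjusted p = 0.00419) and that at 0% was -3.49 (adjusted p = 0.0232). Without male fish 11, 26 and 30, whose vitellogenin was the highest among males, only fish 66 is left for males on 0%, and its spread is taken to be that of the other groups. The averaged sex difference was then -2.34 (adjusted p = 0.0285), that at 0% was -3.17 (adjusted p = 0.163) and the diet difference averaged over sexes was 2.27 (adjusted p = 0.187). With the ovary marker mean as a covariate the averaged sex difference was -2.47 (limma, adjusted p = 0.814) and the averaged diet difference 2.18 (adjusted p = 1). The brighter probe set kept its call for sex at 0% with this covariate. The marker mean itself differed by sex and, in females, by diet, so these fits cannot tell ovary markers from either. Intestinal marker means were high only in males, so the fit with them cannot fully tell these markers from sex.

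The 2 me1 probe sets ordered the fish alike. Their correlation over the 17 arrays was 0.98, and 0.94 after each group's mean was removed, as a description of probe sets that share the same RNA samples. The gap between them was not constant. It was 1.91 to 2.49 in the 12 fish of the other 3 groups, but 1.56, 0.97, 1.09, 2.05 and 0.93 in females on 0% (fish 7, 8, 10, 25 and 27), where me1 was lowest. The dimmer probe set thus gave smaller differences in each contrast that involved those females.

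**Figure D3:**
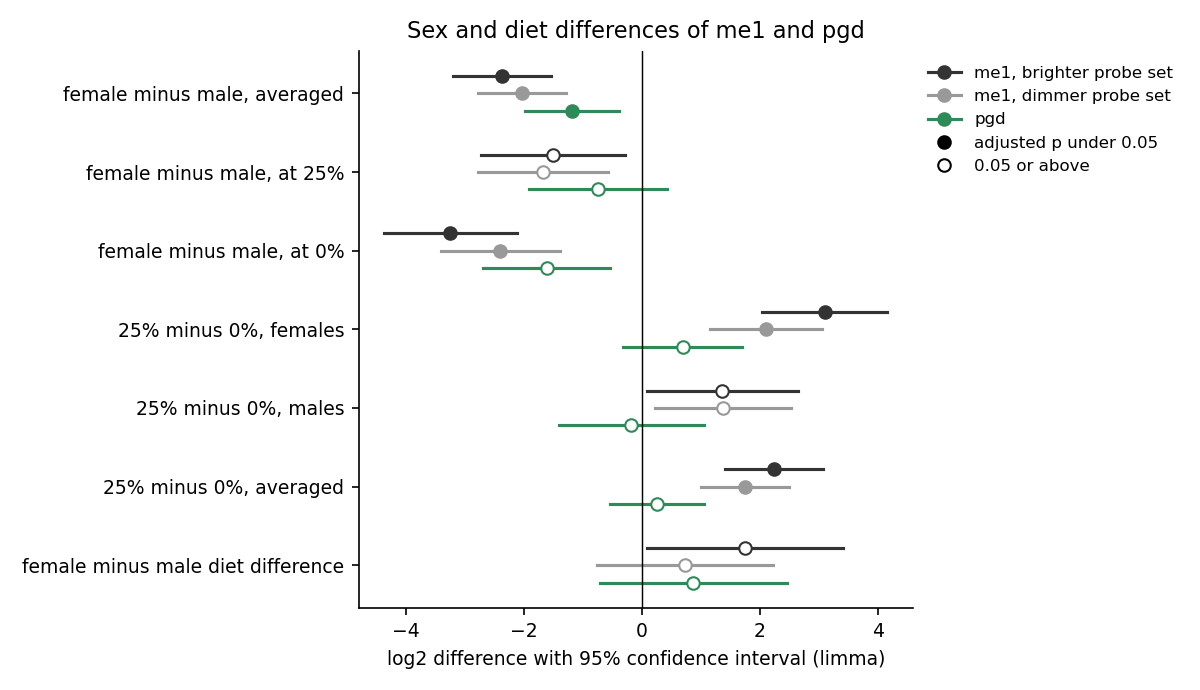
Log2 differences (x axis) of both me1 probe sets and of pgd in 7 contrasts, with 95% confidence intervals from limma; filled points have an adjusted p under 0.05. Both me1 probe sets are filled for sex averaged over diets, sex at 0%, diet in females and diet averaged over sexes, while pgd is filled only for the averaged sex difference.

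Pgd differed less and spread widely. The 5 females on 25% had 5.82 (fish 3), 7.13 (fish 20), 8.09 (fish 24), 7.33 (fish 49) and 5.41 (fish 51). The 5 females on 0% had 6.0 (fish 7), 5.41 (fish 8), 6.12 (fish 10), 6.36 (fish 25) and 6.46 (fish 27). Of the females on 25%, 3 lay above all females on 0% and 2 lay within the range of those on 0%. The 3 males on 25% had 8.22 (fish 52), 7.40 (fish 53) and 6.90 (fish 54), and the 4 males on 0% had 8.81 (fish 11), 6.87 (fish 26), 7.60 (fish 30) and 7.46 (fish 66). The male diets overlapped. The means ran from males on 0% at 7.69 ± 0.82 (SD, n = 4) through males on 25% at 7.51 ± 0.67 (SD, n = 3) and females on 25% at 6.76 ± 1.11 (SD, n = 5) to females on 0% at 6.07 ± 0.41 (SD, n = 5), and no pair of neighbours in this order differed beyond its spread (limma, adjusted p = 0.981, 0.523 and 0.588).

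Averaged over the diets, pgd was lower in females by -1.18 ± 0.37, a 2.27-fold difference with a 95% confidence interval of 1.31 to 3.94, and just passed (limma, adjusted p = 0.0475). With the 2 me1 probe sets, which measure 1 gene, all 3 member probe sets were thus lower in females in this contrast, where 5.57% of all probe sets were. The members were chosen with earlier results of these data known, so this count is only a description. The pgd call was lost in 13 of the 17 fits that left out 1 fish (highest adjusted p = 0.129) and kept without female fish 24 or 49 or male fish 26 or 54. The 2 highest pgd values among males belonged to fish 11 and 52, which carried high intestinal markers. Fish 66 carried them too but had a pgd of 7.46, below fish 30 at 7.60, which did not. The exocrine pancreas marker means of fish 11, 66 and 52 (12.15, 11.87 and 10.37) were also the highest among males, the other 4 lying between 6.45 and 9.14. Fish 24, the female with the highest pgd, had the highest female mean, 11.47. Female fish 51 had the next highest female mean, 10.75, but a pgd of only 5.41. All 15 pancreas markers had differences below 0 for sex at 0% (median -1.61, 0 past the threshold in limma and 0 at an unadjusted p under 0.05) and above 0 for sex at 25% (median 1.29). Their part in the pgd difference was not tested. Without male fish 11, 52 and 66 the pgd difference was -0.78 (adjusted p = 0.284). It was -0.727 with the intestinal marker mean as a covariate and -0.065 with the ovary marker mean as one, and passed in neither fit. The ovary marker mean itself differed by sex, so its fit cannot tell ovary markers from sex. All 14 intestinal markers had sex differences below 0 (median -1.23), and only males had high means. The intestinal fit thus cannot fully tell these markers from sex either. Without male fish 11, 26 and 30, which leaves 1 male on 0%, the pgd difference was -1.07. The summed signal of the 14 intestinal markers spanned 71.9 to 78.8 in females on 25%, 71.1 to 74.2 in females on 0%, 74.7 to 121.0 in males on 25% and 74.2 to 115.4 in males on 0%. In males on 25% fabp2, an intestinal fatty acid-binding protein gene, reached 12.23 and vil1, a brush border gene, 7.16, against at most 6.12 and 2.44 in females, while cdx1a, an intestinal transcription factor, was under the median of every array. Of the 14, only cdx1a and fabp6 lay under the median in all 3 males on 25%. In that group only fish 52 had a high intestinal marker mean (8.65, against 5.36 in fish 53 and 5.34 in fish 54). At 0% the pgd sex difference was -1.62 ± 0.51 (adjusted p = 0.0977) and at 25% -0.75 ± 0.55 (adjusted p = 0.523). All 5 females on 0% lay below all 4 males on 0% for pgd (5.41 to 6.46 against 6.87 to 8.81). Groups that did not overlap in that direction at 0% occurred for 2.84% of all probe sets.

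Dietary carbohydrate gave no call for pgd. The difference was 0.69 ± 0.48 in females (limma, adjusted p = 0.588; 95% confidence interval -0.32 to 1.70), and -0.18 ± 0.57 in males (adjusted p = 0.981; -1.40 to 1.04). The exact two-sided permutation tests gave p = 0.23 in females and p = 0.771 in males. These intervals include more than a doubling in either sex, so a change of pgd was not detectable with this number of arrays rather than shown to be absent. The interaction was 0.87 ± 0.75 (adjusted p = 0.996).

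Whether me1 and pgd changed unequally was tested per fish on the log2 signal of me1, brighter probe set, minus that of pgd. The level of this quantity has no meaning, and the size of its change depends on the probe set. In the 5 females on 25% this quantity averaged 2.1 with an SD of 1.16, and in the 5 females on 0% it averaged -0.31 with an SD of 0.64. The me1 signal therefore changed by 2.41 log2 units more than the pgd signal (exact permutation test, two-sided, p = 0.0159, and 0.0476 adjusted over 3 such tests). In the 3 males on 25% me1 minus pgd averaged 2.86 with an SD of 1.44 and in the 4 males on 0% 1.32 with an SD of 1.15, a difference of 1.54 (exact permutation p = 0.2, with 0.0286 the smallest possible). For sex, averaged over diets, the me1 signal was lower in females by a further -1.2 log2 units beyond that of pgd (exact permutation p = 0.0441, adjusted p = 0.0661), which did not hold after adjustment.

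**Figure D4:**
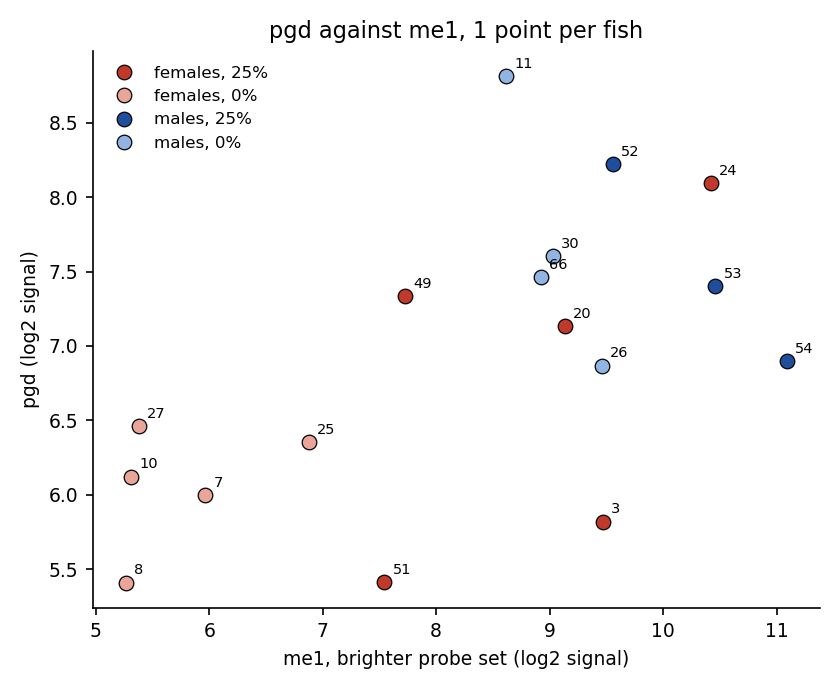
Pgd (y axis) against me1 on its brighter probe set (x axis), both log2 signal, with 1 numbered point per fish coloured by sex and diet. Female fish 3 has me1 of 9.47 with pgd of 5.82, and male fish 54 has the highest me1, 11.09, with pgd of 6.90, while male fish 11 has the highest pgd, 8.81.

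From fish to fish the 2 genes were not shown to move together. Among the 10 females Pearson's r was 0.58 (permutation p = 0.0791, adjusted p = 0.144) and Spearman's rho 0.50 (permutation p = 0.143, adjusted p = 0.2). With each diet's mean removed r was 0.48, and without fish 3 and 24, the farthest from the median of me1, it was 0.56. Without fish 3 alone it was 0.76 (permutation p = 0.0168). Among the 7 males r was -0.60 (exact permutation p = 0.144, adjusted p = 0.144) and rho -0.57 (exact permutation p = 0.2, adjusted p = 0.2). There r was -0.86 with diet means removed and -0.48 without fish 53 and 54. The sign was thus opposite in the sexes, and neither value passed.

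Both genes varied more between fish of a group than most probe sets did. The residual SD within groups was 0.85 for the brighter and 0.76 for the dimmer me1 probe set and 0.81 for pgd, at the 97.1, 96.2 and 96.8 percentiles, against a median of 0.18 over all probe sets. Group means accounted for 83.9% and 79.8% of the variance of the me1 probe sets and for 45.6% of that of pgd, with a median of 28.0% over all probe sets. Fish 24 was the highest female on 25% for me1 on both probe sets and for pgd. It also had the lowest vitellogenin mean among females, 11.85, against 12.55 or more in the others. The part of this in its me1 and pgd values was not tested.

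The genes whose pattern was most like me1 over the 17 arrays were adrm1 (r = 0.89), gcsha (0.85), ciao1 (0.85), atp5mf (0.84) and ndufa5 (0.84), among 10793 probe sets with 1 other symbol. Ciao1 was under the array's median on 13 arrays. Adrm1 is a ubiquitin receptor of the proteasome, gcsha belongs to the glycine cleavage system, and atp5mf and ndufa5 are subunits of ATP synthase and of respiratory complex I. With group means removed the closest were dpydb (0.90), blvrb (0.90), lman1 (0.87), gstt1b (0.85) and ero1b (0.84), so none was on both lists. Lman1 is a cargo receptor of the secretory pathway and ero1b an oxidase of the endoplasmic reticulum. For pgd the closest were gabarapa (0.88), kyat1 (0.87), chmp1b (0.85), arpc3 (0.85) and rab14 (0.85), and with group means removed fbxo44.1 (0.89), cd81a (0.88), si:dkey-250d21.1 (0.87), crebzf (0.87) and kyat1 (0.85). Pgd itself stood at r = 0.58 with me1, number 409 in order of likeness, and at r = 0.15 with group means removed. These correlations share the same arrays and group differences and are given as a description.

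Of the measured enzymes that make NADPH in the cytosol, me1 alone passed for diet in females. Of 10 listed genes 5 were measured under a single symbol. In females on 25% against 0%, 1 of the 5 rose (me1) and 0 fell, where 1.9% of all probe sets rose and 0.194% fell. The median difference was 0.38 against -0.03 over all probe sets. Idh1, the cytosolic isocitrate dehydrogenase, averaged 8.90 in females on 25% and 8.99 in females on 0%, a difference of -0.09 ± 0.21 (limma, adjusted p = 0.91). Pgls, the lactonase one step before pgd, differed by 0.38 ± 0.15 (adjusted p = 0.281) and mthfd1b, a folate enzyme, by 0.04 ± 0.21 (adjusted p = 0.965). Between the sexes 2 of the 5 were lower in females (me1 and pgd) and 0 higher, against 5.57% and 8.02% of all probe sets. Me1 and pgd are the members of this report, so these diet and sex counts only restate their calls. The pgd call was lost in 13 of the 17 fits that left out 1 fish.

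In the pentose phosphate pathway 7 of 15 listed genes were measured. In females 0 of 7 passed for diet in limma (3 at an unadjusted p under 0.05), although all 7 differences lay above 0, with a median of 0.48. Tktb, a transketolase of the non-oxidative branch, differed by 0.56 ± 0.20 (adjusted p = 0.233) and taldo1, the transaldolase, by 0.19 ± 0.38 (adjusted p = 0.897). In males 4 of the 7 differences lay above 0 and tktb stood at -0.53 ± 0.24 (adjusted p = 0.586). For sex averaged over diets 1 of 7 was lower, pgd, where 5.57% of all probe sets were, with a list median of -0.08 against 0.01 over all probe sets. Pgd is a member of this report, so this count only restates its call.

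Malic enzymes and the citrate-malate-pyruvate cycle had 12 of 18 listed genes measured. In females 1 rose with carbohydrate (me1, itself a member of this report) and 1 fell. Of all probe sets 1.9% rose and 0.194% fell, and the list median was 0.06. Mdh1aa, a cytosolic malate dehydrogenase, averaged 11.66 in females on 25% and 12.19 in females on 0%, a difference of -0.53 ± 0.12 (adjusted p = 0.0302). This list's count was 1 in place of 2 without any 1 of female fish 49, 51, 7, 10, 25 or 27, and me1 kept its call in all of these fits. Me3, a mitochondrial malic enzyme, was under the array's median in 15 fish and differed by 0.19 ± 0.36 in females (adjusted p = 0.891), and me2 has no value here. Aclya, the ATP citrate lyase that splits the exported citrate, averaged 4.32 and 3.21 in females on 25% and 0%, a difference of 1.1 ± 0.48 that did not pass (adjusted p = 0.346). Aclya was under the array's median in 9 fish, among them every female on 0%. Slc25a1a, a mitochondrial citrate carrier, was under the array's median in 16 fish (0.17 ± 0.15, adjusted p = 0.69). In males 1 of 12 rose with carbohydrate, where 0.0968% of all probe sets did. This was slc13a5a, a plasma membrane citrate transporter, by 2.82 ± 0.22 (adjusted p = 1.79e-05), with means of 5.77 and 2.95 on 25% and 0%. It was under the array's median in 14 fish, and the count was 0 in a fit of the males alone. It did not pass in females (0.10 ± 0.18). For sex averaged over diets 4 of 12 were lower in females and 0 higher, against the same shares. These were me1, mdh1aa (-0.48 ± 0.09, adjusted p = 0.00341), slc13a5a (-1.86 ± 0.14, adjusted p = 1.19e-06) and pcxb, a pyruvate carboxylase (-0.30 ± 0.08, adjusted p = 0.0261) that was under the array's median in all 17 fish.

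**Figure D5:**
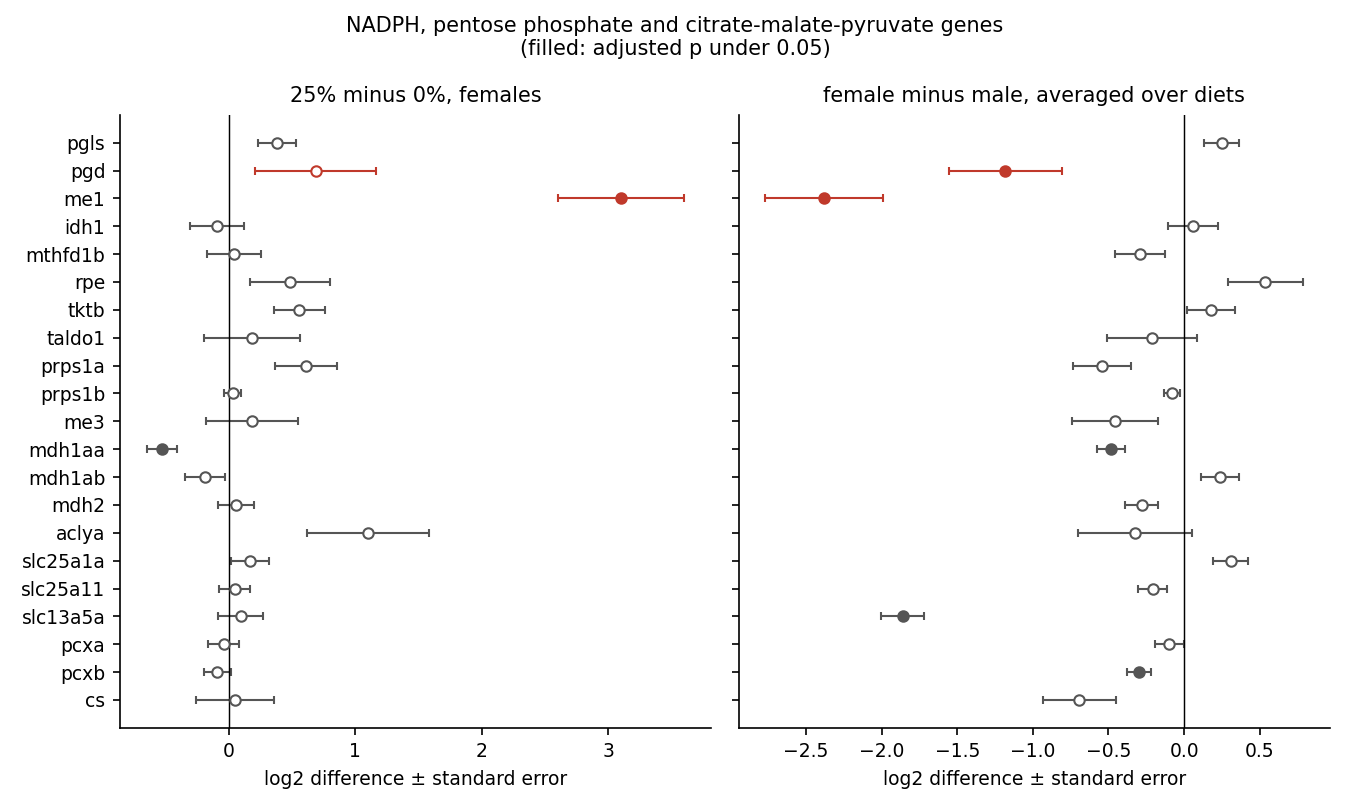
Log2 difference ± standard error (x axis) of measured genes of cytosolic NADPH production, the pentose phosphate pathway and the citrate-malate-pyruvate cycle, for 25% against 0% in females (left) and for females against males averaged over diets (right); me1 and pgd are in red and filled points have an adjusted p under 0.05. In females me1 stands at 3.10 and the next highest gene shown, aclya, at 1.1. Aclya was under the array's median in 9 fish.

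Fatty acid and triglyceride synthesis, which uses NADPH, had 20 of 35 listed genes measured. In females on 25% against 0%, 2 of 20 rose and 0 fell, where 1.9% of all probe sets rose and 0.194% fell, with a list median of 0.17. Mid1ip1b, a regulator of acetyl-CoA carboxylase, averaged 8.68 and 7.31 in females on 25% and 0% and rose by 1.37 ± 0.26 (adjusted p = 0.00589). In males its difference was 1.40 ± 0.31 (adjusted p = 0.131), and averaged over the sexes it rose by 1.39 ± 0.20 (adjusted p = 0.00434), as me1 did. Elovl6l, a fatty acid elongase, rose by 1.13 ± 0.12 in females (adjusted p = 5.76e-05), with means of 3.87 on 25% and 2.74 on 0%; array medians were 3.52 to 3.61. Acaca, the acetyl-CoA carboxylase itself, averaged 8.89 and 8.46 in females on 25% and 0% (0.43 ± 0.55, adjusted p = 0.811), and 8.50 and 9.16 in males on 25% and 0%. Mid1ip1l, a paralogue of mid1ip1b, differed by 0.20 ± 0.26 in females (adjusted p = 0.811).

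For sex averaged over diets, 5 of these 20 genes were higher and 3 lower in females, with a list median of 0.03, where 8.02% of all probe sets were higher and 5.57% lower. Mid1ip1l was higher by 1.42 ± 0.21 (adjusted p = 0.000347), and elovl6l (0.79), mid1ip1b (0.71), the enoyl reductase gene tecrb (0.62) and the desaturase gene fads2 (0.33) were also higher. Agpat3, which acylates lysophosphatidic acid, was lower by -1.31 ± 0.31 (adjusted p = 0.0122), dgat1a, which makes triglyceride, by -1.13 ± 0.27 (adjusted p = 0.0131) and elovl1b by -0.62 ± 0.20 (adjusted p = 0.0464). Dgat1a was under the array's median in 10 fish. Without male fish 11, 52 and 66 the count past the threshold was 3 in place of 8, and it was 4 without fish 52 alone and 5 without fish 20 or 66 alone. Among the NADPH-using glutathione and thioredoxin genes (21 of 34 measured), 0 passed for diet in females in limma (3 at an unadjusted p under 0.05), while for sex 1 was higher and 1 lower, no more than the shares of all probe sets (8.02% and 5.57%): the peroxiredoxins prdx4 at 0.86 ± 0.17 (adjusted p = 0.00311) and prdx2 at -0.80 ± 0.18 (adjusted p = 0.00902). Of the 21 sex differences 19 lay below 0, with a median of -0.29 against 0.01 over all probe sets. The count of 2 became 4 without female fish 49 and 5 without male fish 54.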

How the data were processed

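Liver RNA of 17 zebrafish was hybridised to Affymetrix arrays, 1 per fish, per the labels. The authors' deposited table holds 1 log2 signal per probe set and array. That the scale is log2 was read from the range, 1.82 to 14.38, and array medians differed by at most 0.088. MAS5, RMA, GCRMA and PLIER appear in the submitters' processing notes, and the method behind these values is not given in the sources used here. Probe-level intensities and detection calls were not used here.

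After removal of 115 control probe sets, 15502 were fitted with limma 3.58.1 in R 4.3.3 (lmFit and eBayes, 1 fit of the 4 group means), and p values were adjusted by the Benjamini-Hochberg method over all of them with a threshold of 0.05. The model was tested on simulated data. Symbols came from the platform annotation, where 10795 probe sets carry 1 symbol, and a gene with several probe sets was taken at its brightest. Single values were also tested by exact permutation over fish. All fish numbers differ, no batch is labelled, and no 2 arrays held identical values. The labels do not say how the fish were housed. If fish of a diet shared a tank, diet and tank cannot be told apart. The p values set differences against the spread between single fish and treat the fish as independent.

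Genes named are all me1 and pgd probe sets, list members past the threshold in a contrast whose count is given, a few fixed pathway genes, and the 5 genes most like each member. The contrast of females on 25% with males on 0% was added to order the levels. Members and lists were chosen with earlier results of these data known. Alternatives were other normalizations, brighter probe sets, other eBayes settings, array weights, fewer groups, fish left out, and ovary or intestine marker means as covariates.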

Additional observations from a re-analysis of the deposited data

How the results depend on the processing

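No paired analysis was possible because every fish number occurs once. Me1 kept its direction in all 7 contrasts under every alternative run. With the ovary marker mean as a covariate its calls were lost for sex averaged over diets (-2.47, limma, adjusted p = 0.814), diet in females (2.99) and diet averaged over sexes (2.18). The call for sex at 0% was kept with this covariate. Without male fish 11, 26 and 30, which leaves 1 male on 0%, the me1 differences were -3.17 for sex at 0% and 2.27 for diet averaged over sexes, and both calls were lost. With 1 fish left out at a time, me1 for sex at 25% ranged from -1.92 to -1.15. The dimmer me1 probe set lost its call for sex averaged over diets with the ovary covariate (-2.03, adjusted p = 0.868). The pgd sex difference lost its call under quantile normalization (-1.07, adjusted p = 0.0644), without male fish 11, 52 and 66 (-0.78), without male fish 11, 26 and 30 (-1.07), and with the ovary (-0.065) or intestine (-0.73) marker mean as a covariate, and ranged from -1.35 to -0.995 with 1 fish left out. Pgd for sex at 25% turned to 1.05 with the ovary covariate. The ovary marker mean itself differed by sex and, in females, by diet, so fits with it as a covariate cannot tell ovary markers from either. Intestinal marker means were high only in males, so fits with that covariate cannot fully tell these markers from sex. Pgd for diet in males turned to 0.046 without male fish 11, 26 and 30 and ranged from -0.54 to 0.20 with 1 fish left out. The sex difference of me1 minus pgd was -1.03 with the mean of both me1 probe sets (exact permutation, not past the threshold) and ranged from -1.58 to -0.86 with 1 fish left out, and the female correlation of me1 and pgd ranged from 0.31 to 0.76. The cause was not tested.

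Counts of probe sets called moved by over 1.5 times for sex at 25% (394 in a fit of the groups compared, against 761), sex at 0% (275 to 337, against 516), diet in males (0 to 52, against 18), diet averaged over sexes (121 to 191, against 296) and the interaction (15 to 163, against 108). Among lists, sex counts past the threshold were 2 to 5 against 2 for glutathione and thioredoxin genes, 0 to 2 against 1 for the pentose phosphate pathway, 1 or 2 against 2 for cytosolic NADPH enzymes, 2 to 5 against 4 for the citrate-malate-pyruvate cycle, 0 to 5 against 5 for mitochondrial NADPH balance, 3 to 9 against 8 for fatty acid and triglyceride synthesis, 1 to 3 against 1 for regulators and 0 or 1 against 1 for cholesterol synthesis. Signals close to the array median may lie at background, which was not measured here.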

Other observations

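For diet in females, glucose uptake and glycolysis had 1 of 29 measured genes higher and 0 lower, where 1.9% of all probe sets were higher and 0.194% lower. The list median was -0.07. The gene was tpi1a, a triosephosphate isomerase, by 0.52 ± 0.09 (limma, adjusted p = 0.00276). Tpi1a was under the array's median in 11 fish, and the count was 0 in a fit of the brighter probe sets. Regulators of lipid and carbohydrate response had 1 of 12 higher and 0 lower, against the same shares. This was txnipb, a gene of the thioredoxin-interacting protein family, by 0.47 ± 0.10 (adjusted p = 0.0167). Txnipb had means of 3.40 and 2.94 in females on 25% and 0%, and was under the array's median in 15 fish. Averaged over the sexes txnipb rose by 0.50 ± 0.08 (adjusted p = 0.00506). Its female call was lost without any 1 of female fish 49, 51, 7 or 8. Mitochondrial NADPH balance (9 measured) and cholesterol synthesis (9 measured) had 0 past the threshold in limma, and 1 and 0 at an unadjusted p under 0.05.

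For sex averaged over diets, glycolysis had 5 of 29 lower in females and 2 higher, where 5.57% of all probe sets were lower and 8.02% higher. Tpi1b (-0.70 ± 0.14), eno3 (-0.50 ± 0.10), gapdh (-0.36 ± 0.07), pfkfb4b (-0.35) and pgam1b (-0.28) were lower, and tpi1a (0.56 ± 0.07) and the hexokinase gene hk2 (0.41 ± 0.10) were higher. Pfkfb4b was under the array's median in 16 fish and tpi1a in 11. The list of mitochondrial NADPH balance, which also holds the NAD-linked idh3a, idh3b and idh3g, had 4 of 9 lower and 1 higher. The lower ones were mthfd2 (-0.55), glud1a (-0.54), idh3a (-0.50) and glud1b (-0.30). The higher one was idh2, the mitochondrial NADP isocitrate dehydrogenase, at 0.63 ± 0.18 (limma, adjusted p = 0.0314). Mthfd2 was under the array's median in 12 fish. Among regulators 1 of 12 was higher, the oestrogen receptor gene esr1, and in cholesterol synthesis 1 of 9 was lower, fdft1, at -0.18. Fdft1 was under the array's median in all 17 fish. With 1 fish left out at a time, the mitochondrial count of 5 moved by over 1.5 times in 12 of 17 fits and the cholesterol call was lost in 10.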
